A study of Homo sapiens with 2 samples.

Results

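The actin and tubulin genes examined here were 10 genes selected by symbol, and 10 of 10 were listed in a table of 10987 genes. They comprised both cytoplasmic actins (ACTB and ACTG1), 3 alpha-tubulins (TUBA1A, TUBA1B and TUBA1C), 4 beta-tubulins (TUBB, TUBB2A, TUBB4B and TUBB6) and the gamma-tubulin TUBG1. ACTB, or β-actin, was also the internal control of the qRT-PCR in the study. RNA sequencing compared 1 library of THP1 cells given bort for 24 h with 1 library of THP1 cells left untreated. Bort (bortezomib) inhibits the proteasome, and THP1 is a human leukaemia line labelled monocytic. The concentration of bort is not given in the labels. The deposited values were FPKM, fragment counts divided by transcript length and by the mapped fragments of the library, so levels could be compared between genes within a library. Each condition had a single library, so no difference below could be set against the spread between replicates, no p-value was computed, and each statement compares these libraries and not the conditions.

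Actin monomers polymerize into the filaments that form the cell cortex, and alpha- and beta-tubulin pair into the dimers that build microtubules. Gamma-tubulin sits in a ring complex that starts new microtubules. Cells carry several actin and tubulin genes, called isotypes, whose proteins are very alike. The mRNA of tubulin is known to be degraded when free tubulin dimers accumulate, through the ribosome-bound factor TTC5, and the transcription of actin genes responds to free actin monomers through the factors MRTF and SRF. Microtubules are the target of the vinca alkaloids used against leukaemia.

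The stretch amplified as the β-actin reference is shown first, because ACTB and ACTG1 lay in opposite directions in these libraries and are close in sequence. The forward and reverse primers listed for human β-actin by the study are as follows, 5′ to 3′.
β-actin forward: tggcatccacgaaactacct
β-actin reverse: cgtacaggtctttgcggatg
In the ACTB-218 transcript of GENCODE 29 both primers lay in exon 5 and bounded 68 bases of the coding sequence, from coding base 816 to 883, counted from the A of the start codon. The same coding interval of ACTG1 is given below it, with the bases that differ between the genes in capitals.
ACTB: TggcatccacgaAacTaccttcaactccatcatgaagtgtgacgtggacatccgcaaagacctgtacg
ACTG1: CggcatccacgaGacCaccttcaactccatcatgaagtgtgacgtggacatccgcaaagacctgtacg
The genes differed at 3 of the 68 bases, and each of the 3 lay under the forward primer. The reverse primer matched ACTG1 with 0 mismatches. No transcript of another gene held exact matches to both primers in order, against 7 transcripts of ACTB, among 206694 transcripts searched. Taken alone, the forward primer also matched noncoding transcripts of 6 other genes, and the reverse primer those of 1. Only exact matches were searched, so amplification from near matches was not tested. Over their whole coding sequences, 1125 bases each, ACTB and ACTG1 were 91.3% identical base for base.

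Of the 10 genes, 7 were lower and 3 were higher in the bort-treated library, and none differed by 2-fold. Of all genes, 49.7% were lower. The 3 higher genes were ACTG1, TUBB2A and TUBB6. Fold changes are differences of log2(FPKM + 1), bort-treated against untreated, which understate the change of genes with low FPKM. A difference of 2-fold or more counted as called. On that scale 0 members were higher and 0 were lower, where 8.08% of all genes were higher and 10.2% were lower. At 1.5-fold, 2 members were higher (ACTG1 and TUBB2A) and 3 were lower (ACTB, TUBA1A and TUBG1), against 20.8% and 21.6% of all genes. The median log2 fold change was -0.43 over the members and 0.0049 over all genes. The summed FPKM of the members was 1972 in the untreated and 1538 in the bort-treated library, or 0.939% and 0.694% of the summed FPKM of the table.

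**Figure D1:**
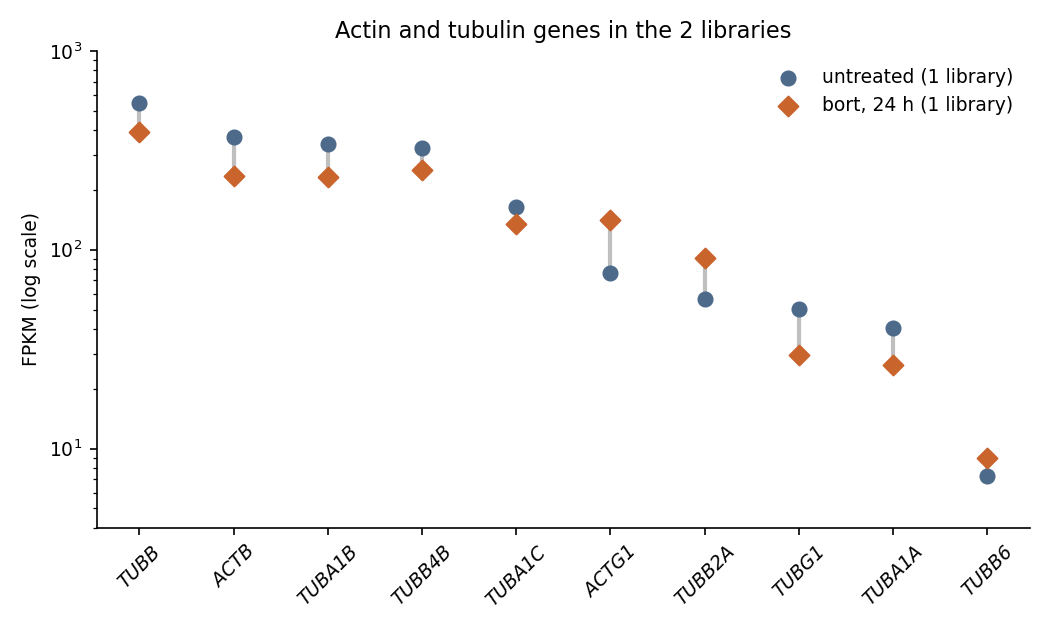
FPKM (log axis) of the 10 actin and tubulin genes in the untreated library (circles) and the bort-treated library (diamonds), 1 library each and therefore without error bars, ordered by the untreated level. ACTG1, TUBB2A and TUBB6 have the diamond above the circle, and the other 7 genes below it.

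Several facts about the libraries bear on every value below. The number of reads is unknown, so no counting error is given. Of 10 monocytic markers only 4 were listed, and among the defining ones CD14, CSF1R and MPO are not analysed here, while 9 of 10 erythroid markers were listed, of which 6 were lower with bort. The fetal globin transcript HBG1 stood at 1487 FPKM untreated and 1536 FPKM with bort, whereas the erythroid transcription factors GATA1, at 161.3 and 48.7 FPKM, and KLF1, at 147.1 and 17.4 FPKM, were lower by 2-fold. The summed FPKM was 14.4 untreated and 35.7 with bort over the 4 monocytic markers, and 3995 and 3531 over the 9 erythroid markers, most of it globin. Their part in the member differences was not tested. The levels therefore describe cells labelled THP1 whose markers go against the label. Genes at high FPKM in the untreated library also tended to be lower with bort. They were chosen by the value that the fold change divides by, which by itself can favour lower fold changes. Of the 328 genes at 100 FPKM or more in the untreated library, 217 (66.2%) were lower, and 124 (37.8%) were lower by 1.5-fold, with a median log2 fold change of -0.30. The 5 members at that level (TUBB, ACTB, TUBA1B, TUBB4B and TUBA1C) were all lower, and 1 of them, ACTB, by 1.5-fold. The part of expression level in the member differences was not tested. In bulk RNA a change in the makeup of the culture and a change of RNA per cell cannot be told apart, nor can bort and any other difference between the cultures.

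The cytoplasmic actins lay in opposite directions. ACTB (ENSG00000075624.13_3), which encodes β-actin of the cortex and of motile structures, was at 367.3 FPKM untreated and 235.1 FPKM with bort. This was a change of -36.0% and a log2 fold change of -0.64, and its rank by FPKM among all genes went from 54 to 103. ACTG1 (ENSG00000184009.9_3), which encodes γ-actin, was at 76.5 FPKM untreated and 141.2 FPKM with bort, a change of 84.6% and a log2 fold change of 0.88. ACTG1 thus had the highest fold change of the members, higher than or equal to 89.1% of all genes, and went from rank 460 to rank 175. The ratio of ACTB to ACTG1 FPKM was 4.80 untreated and 1.66 with bort. A ratio within a library does not depend on how the libraries are scaled to each other. ACTB made up 82.8% of the actin FPKM without bort and 62.5% with it. The sum of both actins was 443.8 FPKM untreated and 376.4 FPKM with bort, a log2 fold change of -0.24. The other actin genes looked up (ACTA1, ACTA2, ACTC1, ACTG2 and ACTBL2, which encode muscle actins and an actin-like protein) were not listed and are not analysed here.

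The 3 alpha-tubulin members were each lower. TUBA1B, the most abundant alpha-tubulin gene in both libraries, was at 339.2 FPKM untreated and 232.3 FPKM with bort, a log2 fold change of -0.54. TUBA1C was at 163.0 FPKM untreated and 135.0 FPKM with bort, a log2 fold change of -0.27. TUBA1A, an isotype best known from developing neurons, was at 40.4 FPKM untreated and 26.3 FPKM with bort, a log2 fold change of -0.60. The ratio of TUBA1B to TUBA1A FPKM was 8.40 and 8.82, so these isotypes kept nearly the same proportion. TUBA1C was lower by less, and its share of the alpha-tubulin FPKM was 29.2% untreated and 32.8% with bort. Of the other listed alpha-tubulin genes, TUBA4A was at 13.4 and 14.8 FPKM, TUBAL3 at 2.71 and 3.08 FPKM and TUBA8 at 0.559 and 0.213 FPKM, the untreated value being given first here and below. The sum over the 6 listed alpha-tubulin genes was 559.2 FPKM untreated and 411.7 FPKM with bort, a change of -26.4%.

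Among the beta-tubulin members, the more abundant genes were lower and the less abundant ones were higher. TUBB, the most abundant of the 10 members, was at 545.6 FPKM untreated and 388.2 FPKM with bort, a log2 fold change of -0.49. TUBB4B was at 326.1 FPKM untreated and 250.6 FPKM with bort, a log2 fold change of -0.38. These isotypes, which are widely expressed in dividing cells, differed in the same direction. TUBB2A was at 56.4 FPKM untreated and 90.9 FPKM with bort, a log2 fold change of 0.68. TUBB6 was the least abundant member, at 7.27 FPKM untreated and 9.01 FPKM with bort, a log2 fold change of 0.27. TUBB2B, a close copy of TUBB2A that is not among the 10 members, was at 37.7 FPKM untreated and 65.8 FPKM with bort, a log2 fold change of 0.79. The ratio of TUBB to TUBB2A FPKM was 9.67 untreated and 4.27 with bort. TUBB2A made up 5.75% of the FPKM of the 8 listed beta-tubulin genes without bort and 11.2% with it, while the share of TUBB was 55.7% and 47.8%. TUBB1, the beta-tubulin of platelets, was at 2.36 and 3.05 FPKM, TUBB3, which is best known from neurons, at 3.08 and 3.31 FPKM, and TUBB4A at 1.74 and 1.43 FPKM. The ratio of alpha-tubulin to beta-tubulin FPKM was 0.571 untreated and 0.507 with bort. The sum over the 8 beta-tubulin genes was 980.2 FPKM untreated and 812.4 FPKM with bort, and its ratio to the actin sum was 2.21 and 2.16.

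The gamma-tubulin TUBG1 had the lowest fold change of the members on the deposited scale, and TUBA1A had it once the GC trend was removed. TUBG1, the main gamma-tubulin of dividing cells, was at 50.5 FPKM untreated and 29.6 FPKM with bort, a log2 fold change of -0.75. Its paralog TUBG2 was at 5.26 FPKM untreated and 1.72 FPKM with bort, a log2 fold change of -1.20. Of the 10 other listed isotypes it was the only gene past 2-fold. That is 10% lower, near the 10.2% of all genes that were lower by 2-fold. The share of TUBG1 in the gamma-tubulin FPKM was 90.6% and 94.5%. TUBD1 and TUBE1 encode the delta- and epsilon-tubulins of centrioles. TUBD1 was at 5.80 and 5.69 FPKM, and TUBE1 at 0.961 and 2.39 FPKM, a log2 fold change of 0.79.

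Fragments that match more than 1 isotype are divided between genes by the abundance estimate, so the identity of the members was examined in the transcripts of GENCODE 29. Of the distinct stretches of 100 bases in the protein-coding transcripts of TUBA1B, 25.2% also occurred in a transcript of another gene, chiefly TUBA1C and TUBA1A. The share was 56.4% for TUBB2A, with TUBB2B as the main partner, and 13.7% for TUBG1, with TUBG2 as its only partner. It was 0.0969% for ACTB, 0% for ACTG1 and 0% for TUBB6. With stretches of 50 bases the shares were 6.66% for ACTB, 2.68% for ACTG1, 45.9% for TUBA1B and 65.5% for TUBB2A. The division between ACTB and ACTG1 thus rested on mostly distinct sequence, whereas that between TUBB2A and TUBB2B did not. Sums over close isotypes depend less on that division, although not wholly, since FPKM is divided by the length of each gene and some stretches also occur in genes outside the sums. TUBB2A plus TUBB2B was at 94.1 FPKM untreated and 156.7 FPKM with bort, a log2 fold change of 0.73. TUBA1A, TUBA1B and TUBA1C together were at 542.5 and 393.6 FPKM, a log2 fold change of -0.46, and TUBG1 plus TUBG2 differed by -0.81. In GENCODE 29 every member except TUBB2A overlaps a gene on the opposite strand. TUBA1A and TUBA1C overlap each other, TUBB4B overlaps FAM166A, TUBB6 overlaps AFG3L2 and TUBG1 overlaps RETREG3, while ACTB, ACTG1, TUBA1B and TUBB overlap antisense RNA genes. The sources name different library kits, so whether strand was used is not settled, and reads from these overlaps are uncertain.

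The use of ACTB as a reference was examined by dividing each library by its own ACTB FPKM. This moved the median log2 fold change of all genes by 0.50, so that 2639 genes passed 2-fold upwards and 350 downwards, where on the deposited scale 888 and 1125 did. Relative to ACTB, ACTG1 had a log2 fold change of 1.51 and TUBB2A of 1.31, and both were past 2-fold. TUBG1 stayed lower at -0.12, and TUBA1A, TUBA1B, TUBB, TUBB4B and TUBA1C had positive values between 0.027 and 0.37. Set against the shift of 0.50 in all genes, these 5 tubulin genes remained below the typical gene. The transcript of CDK6, a cell cycle kinase, was measured against β-actin by qRT-PCR in the study, which reported a decrease with bort in THP1 cells. In these libraries CDK6 was at 11.5 FPKM untreated and 6.45 FPKM with bort, a change of -44.1%. Per 1000 FPKM of ACTB it was at 31.4 untreated and 27.4 with bort, a change of -12.6%. The decrease relative to β-actin that the study reported by qRT-PCR was larger than this. That was a separate assay, whereas the value here is a ratio of FPKM from 1 library per group. The study also reported less CDK6 protein with bort, and lower CDK6 in primary AML blasts and murine leukaemic cells. Divided by ACTG1, CDK6 changed by -69.7%.

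ACTB was also set beside 16 other genes in common use as qPCR references. Of these, 8 had a smaller log2 fold change than ACTB in size, and 8 were higher and 8 lower. A value in parentheses after a pair of FPKM is its log2 fold change. The smallest differences were those of IPO8, a nuclear import receptor, at 8.64 and 9.27 FPKM (0.09), of POLR2A, the largest subunit of RNA polymerase II, at 32.8 and 30.1 FPKM (-0.12), and of the ribosomal protein gene RPL13A at 624.8 and 678.6 FPKM (0.12). GAPDH, a glycolytic enzyme, was at 774.6 and 695.1 FPKM, a log2 fold change of -0.16. The highest fold change of these 16 was that of B2M, the light chain of MHC class I, at 7.41 and 17.3 FPKM (1.12), and the lowest that of GUSB, a lysosomal enzyme, at 24.7 and 9.96 FPKM (-1.23). TBP, at 9.49 and 20.2 FPKM (1.02), and YWHAZ, at 42.2 and 86.1 FPKM (1.01), also passed 2-fold. Of the 16, 3 were thus higher by 2-fold (18.8%) and 1 was lower (6.25%), against 8.08% and 10.2% of all genes. A list of 16 genes is too short for this to set it apart. TFRC had the second lowest fold change, at 56.0 and 28.6 FPKM (-0.95), and 4 of the 16 lay below ACTB in log2 fold change. CDK6 divided by each of the 16 genes in turn was lower with 14 of them and lower by 2-fold with 6. Its change ranged from -76.0% relative to B2M to 38.4% relative to GUSB, with a median of -43.5%.

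The members were also compared with genes of like GC content. The longest protein-coding transcript of each member had a GC content from 51.6% (TUBA1C) to 59.5% (TUBB6). The 678 genes within 1 percentage point of the GC content of ACTB (56.0%) had a median log2 fold change of -0.31, and the 701 genes around ACTG1 (57.8%) one of -0.33. ACTB at -0.64 was below the median around it, and ACTG1 at 0.88 was above. With the GC trend removed by a local regression, ACTB was at -0.34, TUBG1 at -0.40, TUBA1A at -0.46, TUBA1B at -0.39, TUBB at -0.32 and TUBA1C at -0.14. ACTG1 was then at 1.23, TUBB2A at 1.08 and TUBB6 at 0.68, so that the first 2 were past 2-fold. TUBB4B alone turned its sign, to 0.023. The median of the members was -0.23 without the trend, against -0.30 for the CCT chaperonin subunits and 0.26 for the other listed isotypes. ACTG1 was above ACTB by 1.51 to 1.57 on the log2 scale, and TUBB2A above TUBB by 1.16 to 1.40, over the settings run. Scaling moves both genes of a pair almost alike, so only the pseudocount and the GC trend could alter these differences.

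The genes whose levels were most like those of ACTB were ranked by their distance on the log2(FPKM + 1) scale over the 2 libraries. The nearest was TUBA1B, at a distance of 0.12. It was followed by HMGA1, which encodes a chromatin protein, at 393.7 and 246.0 FPKM (distance 0.12), and by TUBB4B (distance 0.19). RPL8, a ribosomal protein gene, at 333.8 and 265.3 FPKM (distance 0.22), and COX8A, a subunit of cytochrome c oxidase, at 390.6 and 203.7 FPKM (distance 0.22), came next. With 2 libraries this likeness only says that both levels were close.

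Upstream sequence is shown for both members past 1.5-fold higher and for a pair of lower tubulin genes. RefSeq windows were found for 9 of the 10 members, ACTB being the exception. Each line gives the 150 bases before the annotated start, 5′ to 3′ on the strand of the gene, in GRCh38.p14, with motif matches in capitals.
ACTG1 promoter, chr17:81512800-81512949, minus strand: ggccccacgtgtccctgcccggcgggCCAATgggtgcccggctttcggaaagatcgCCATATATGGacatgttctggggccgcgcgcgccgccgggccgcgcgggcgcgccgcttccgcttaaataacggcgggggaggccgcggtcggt
TUBB2A promoter, chr6:3157545-3157694, minus strand: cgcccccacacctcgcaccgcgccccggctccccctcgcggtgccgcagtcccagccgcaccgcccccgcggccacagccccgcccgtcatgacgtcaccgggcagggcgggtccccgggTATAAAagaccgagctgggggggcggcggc
TUBA1A promoter, chr12:49189081-49189230, minus strand: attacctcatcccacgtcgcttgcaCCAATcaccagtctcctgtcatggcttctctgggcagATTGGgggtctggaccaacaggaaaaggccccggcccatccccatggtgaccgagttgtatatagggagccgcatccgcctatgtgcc
TUBG1 promoter, chr17:42609533-42609682, plus strand: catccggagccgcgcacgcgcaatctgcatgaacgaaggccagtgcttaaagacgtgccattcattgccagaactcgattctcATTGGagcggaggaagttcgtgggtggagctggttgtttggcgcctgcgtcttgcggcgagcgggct
Motifs were searched on both strands of 300 bases around each start. They were TATAAA of the TATA box, the box named CCAAT, the sequence GAANNTTC with any base at N, and the CArG box, the element that SRF binds. The CArG box is the longer capital run in ACTG1. The 9 members have 13 windows, since some genes have several starts. A CArG box was found in 1 of the 13, that of ACTG1, between bases -94 and -85 from its start, and in 1.29% of 35116 promoters of the same length. ACTB had no window, so the actins could not be compared for this motif. TATAAA was found in TUBB2A, between bases -30 and -25, and in 11.5% of all promoters. CCAAT was found in 9 of the 13 windows of the members, from 7 of the 9 genes, and in 34.6% of all promoter windows. GAANNTTC, a core of the heat shock element, was found in 3 of the 13 windows, from TUBA1C and TUBB, and in 6.77% of all promoter windows. Windows 1 and 2 of TUBA1C overlap and hold the same CCAAT and GAANNTTC sites. The window counts of both motifs therefore include repeated sites, and by gene GAANNTTC was found in 2 of the 9. A match is only a run of letters, and binding was not measured here.

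The factors that are known to act on actin and tubulin mRNA were of low or moderate level. SRF, the transcription factor of actin genes, was at 26.0 FPKM untreated and 12.8 FPKM with bort, a log2 fold change of -0.96. Its coactivators MKL1 and MKL2, also named MRTFA and MRTFB, were at 4.39 and 4.99 FPKM and at 0.279 and 0.531 FPKM. TTC5, the tubulin autoregulation factor, was at 1.41 and 1.74 FPKM.

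Across the lists of cytoskeletal genes, 132 of 147 genes were listed, and their median log2 fold change was 0.044. Of those listed, 11 were higher and 8 lower by 2-fold, or 8.33% and 6.06%, against 8.08% and 10.2% of all genes. Of the 8 subunits of the CCT chaperonin, which folds actin and tubulin, 7 were lower and 1, CCT7, passed 2-fold, at 216.6 and 103.7 FPKM. Each of the 8 was above 100 FPKM untreated, a level at which 66.2% of genes were lower, against 49.7% of all genes. CCT3 was next, at 167.0 and 114.6 FPKM, while CCT8 was at 178.8 and 185.1 FPKM and CCT4 at 154.6 and 150.3 FPKM. Of 12 listed tubulin cofactors and prefoldin subunits, only PFDN4 passed 2-fold, at 18.8 and 46.3 FPKM (1.26). PFDN5 was at 37.1 and 63.7 FPKM (0.76), PFDN2, the most abundant, at 124.1 and 119.0 FPKM, TBCD at 8.59 and 3.95 FPKM (-0.96) and ARL2 at 22.6 and 12.4 FPKM (-0.82).

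Partners of gamma-tubulin did not pass 2-fold, where 8.08% of all genes were higher and 10.2% were lower. A list of 9 genes is too short for this to set it apart. Of the 9 genes of the gamma-tubulin ring complex 6 were lower, with a median of -0.18, where 49.7% of all genes were lower. MZT2A was at 26.3 and 15.6 FPKM (-0.71), MZT2B at 49.9 and 30.4 FPKM (-0.70), MZT1 at 10.2 and 19.6 FPKM (0.88) and TUBGCP3 at 3.81 and 4.58 FPKM (0.21). The value of TUBG1, -0.75, was close to those of MZT2A and MZT2B. With the GC trend removed TUBG1 was at -0.40, MZT2A at 0.042 and MZT2B at 0.062.

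Microtubule regulators held both the highest and the lowest fold change of these pathway lists. Of 17 genes, 3 were higher and 1 was lower by 2-fold, where 8.08% of all genes were higher and 10.2% were lower. MAP1A, which stabilizes microtubules, was at 10.4 FPKM untreated and 43.3 FPKM with bort (1.95), and its relative MAP1B at 6.09 and 25.1 FPKM (1.88). STMN3, a stathmin that binds free tubulin dimers, was at 57.4 and 7.79 FPKM (-2.73), whereas its paralog STMN1 was at 54.7 and 59.6 FPKM (0.12), a gene named here after its value was seen. CLIP1, a plus-end linker, was the third gene past 2-fold upwards, at 2.05 and 5.47 FPKM (1.09), and is likewise named after its value was seen. SPAST, a severing enzyme, was at 2.28 and 1.17 FPKM (-0.59), and MAPRE1, a plus-end binding protein, at 88.8 and 115.4 FPKM. Of 13 listed tubulin-modifying enzymes, AGTPBP1, which removes glutamates from tubulin tails, was at 2.32 and 6.20 FPKM (1.12), and TTLL12 at 60.6 and 16.7 FPKM (-1.80). TTL, which adds the terminal tyrosine of alpha-tubulin, was at 2.06 and 5.11 FPKM, a log2 fold change of 1.00 that rounds up to the threshold without reaching it, and AGBL5 was at 10.6 and 5.46 FPKM (-0.85).

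Actin regulators went both ways. Of 15 genes of actin monomer turnover, 3 were higher and 1 was lower by 2-fold, against 8.08% and 10.2% of all genes. TMSB4X, which sequesters actin monomers, was at 83.1 and 186.0 FPKM (1.15), and PFN2, a profilin, at 0.154 and 2.06 FPKM (1.40). The third was CAPZA1, a capping protein subunit, at 31.9 and 69.6 FPKM (1.10), named after its value was seen. Paralogs of TMSB4X and PFN2 were lower with bort, with TMSB10, the most abundant, at 602.2 and 470.4 FPKM (-0.36) and PFN1 at 280.1 and 159.8 FPKM (-0.81). CFL1, the cofilin that severs filaments, was at 78.3 and 38.2 FPKM (-1.02). Of 12 genes of the Arp2/3 complex and its activators, ARPC5 was at 4.85 and 14.3 FPKM (1.39), ARPC2 at 14.7 and 19.9 FPKM (0.41), BRK1 at 86.6 and 101.1 FPKM, ARPC5L at 43.2 and 27.9 FPKM (-0.61) and the formin DIAPH1 at 57.0 and 23.9 FPKM (-1.22). Of the 10 actin-related proteins, ACTR6 was at 8.995 and 19.4 FPKM (1.03), ACTR1A at 11.4 and 22.3 FPKM (0.91), ACTR2, the most abundant, at 45.1 and 48.0 FPKM, ACTR3B at 3.20 and 1.15 FPKM (-0.96) and ACTR5 at 12.3 and 6.74 FPKM (-0.78). Of 22 listed crosslinking, tropomyosin and myosin genes, TPM4 was higher by 2-fold, at 11.2 and 31.2 FPKM (1.40). The non-muscle myosin heavy chains MYH10, at 41.1 and 12.6 FPKM (-1.63), and MYH9, at 57.0 and 26.9 FPKM (-1.05), were lower by 2-fold. EZR was at 75.8 and 109.7 FPKM (0.53), and MYL12B, the most abundant of this list, at 149.1 and 140.6 FPKM.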

How the data were processed

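RNA from 1 bort-treated and 1 untreated THP1 culture was sequenced. Alignment by the authors used HISAT2 (2.0.4), and StringTie (1.2.3) gave the abundances. The deposited values are FPKM per gene, on GRCh37 per the submitters' processing notes, for 10987 genes that reached at least 0.501 FPKM in 1 library. Read depth is not given in the sources used here. The methods name a stranded KAPA kit and the labels a TruSeq kit.

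Fold changes were differences of log2(FPKM + 1), with a 2-fold threshold and no test, since each group held 1 library. All 10 members and all lists were chosen with earlier results of these data known. Named besides the members were all listed other isotypes, SRF, MKL1, MKL2 and TTC5, CDK6 and the 5 genes nearest to ACTB. In each further list except the markers, the 2 highest, 2 lowest and most abundant genes were named. IPO8, POLR2A, RPL13A, YWHAZ and the markers HBG1, GATA1 and KLF1 were named outside this rule, with their values known. Some qPCR reference genes are not reported here. For a duplicated symbol (7 cases) the first row was used. Transcripts and GC content came from GENCODE 29 on GRCh38 (10907 genes matched, 99.3%), and promoters from RefSeq. These differ in build from the values, so the values carry no coordinates, and the promoter windows are placed on GRCh38.p14 only. The lowess span was 0.3. Calculations were tested on simulated data. Python 3.11.15, numpy 2.4.6, pandas 2.3.3, statsmodels 0.14.6 and matplotlib 3.10.9 were used.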

Additional observations from a re-analysis of the deposited data

How the results depend on the processing

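No paired analysis was possible because a group holds a single library, which also leaves none to omit. Depth is unknown, so counting error cannot be given, and a fold change has no spread to be judged against. The members' median was reversed, to 0.21, only when libraries were scaled to ACTB, which by construction adds the lower ACTB of the bort-treated library to every gene. That scaling also reversed TUBA1A (0.027), TUBA1B (0.097), TUBA1C (0.37), TUBB (0.15) and TUBB4B (0.26), and it gave 2 members higher by 2-fold. With the GC trend removed 2 members were also higher by 2-fold, and TUBB4B was at 0.023. At 1.5-fold 2 members were higher and 3 lower, as a lower threshold allows. In the other settings the members kept their sign and stayed within 2-fold.

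Medians of some lists lie near 0 and turned sign. With 1 FPKM required in both libraries, tubulin-modifying enzymes were at -0.13, actin monomer turnover at -0.078, the Arp2/3 list at 0.081 and the crosslinking and myosin list at 0.0024. The last was at 0.065 with upper quartile scaling and 0.070 with totals without the 20 most abundant genes. Scaled to ACTB, the CCT chaperonin was at 0.50, the gamma-tubulin ring complex at 0.32, the Arp2/3 list at 0.52 and the crosslinking list at 0.59. Without the GC trend, actin-related proteins were at -0.13, the ring complex at 0.042, the Arp2/3 list at 0.055, the crosslinking list at 0.065 and SRF, MKL1, MKL2 and TTC5 at -0.0072. The cause was not tested. Among genes past 2-fold, 44.1% were higher on the deposited scale, 54.2% (1100 higher, 931 lower) with totals without the 20 most abundant genes and 88.3% when scaled to ACTB.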
